A study of Saccharomyces cerevisiae with 49 samples.

Results

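The nuclear genes of the yeast mitochondrial ribosome were followed through 3 synchronized cell cycle time courses of Saccharomyces cerevisiae. The 65 genes described here are those whose symbol on the array platform has the form MRP, MRPL, MRPS or RSM followed by a number, out of 6228 measured features and 5540 named genes. By their names and standard ribosomal protein designations, 37 belong to the large subunit and 26 to the small subunit. The other 2, MRP8 and RSM22, carry the name pattern but are not counted as structural proteins. A single culture of BY4741 bar1-, a laboratory strain without the protease that degrades mating pheromone, was held in G1 by alpha factor for 3 h, then filtered and released into fresh medium. It gave 17 arrays at 0 to 150 min. Another 2 cultures were of BY4741 cdc28(ts), which carries a temperature-sensitive allele (cdc28-13) of the cyclin-dependent kinase that starts the cycle. These cultures were held in G1 for 3 h at 37 degrees and released by rapid cooling. Culture B gave 16 arrays at 0 to 225 min and culture E 16 arrays at 0 to 160 min. Each array compared Cy5-labelled RNA of synchronized cells with Cy3-labelled RNA of unarrested mid-log cells of the same labelled strain. The labels name total RNA as the molecule for the alpha-factor arrays and polyA RNA for the cdc28 arrays, although the protocols of both describe mRNA purification. Strain, kind of arrest, temperature and this label all differ between the alpha-factor and cdc28 courses and cannot be told apart.

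Mitochondria translate a small set of proteins of their own genome, nearly all of them membrane subunits of the respiratory chain and ATP synthase. The ribosome that makes them has RNA from the mitochondrial genome and proteins that, with few exceptions, are encoded in the nucleus, made in the cytosol and imported. Part of these proteins belong to families shared with bacterial ribosomes and part have no bacterial counterpart. In budding yeast, the messages of many of them are bound by the RNA-binding protein Puf3, which is known for tuning mitochondrial messages to the carbon source. Of the 65 genes, 41 had a standard name of a bacterial family (24 in the large and 17 in the small subunit), and 22 structural members had none (13 large, 9 small).

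Levels are given as log2 of the ratio to mid-log cells, with the median of each array set to 0, so that a level of 0 means a ratio like that of the median feature on that array. They say nothing on the amount of RNA per cell. Fewer cells with a message and less of it per cell cannot be told apart. Arrays held 4189 to 6110 values. Of the members, 31 had values on every array and 7 on fewer than 40, with MRPL3 lowest at 30 arrays. The array of culture B at 135 min stood apart, with 4189 values and only 44 of the members. MFA1, the gene of the a-factor pheromone that marks a cells, stood at 3.03 at 0 min in the alpha-factor course and at 1.96 and 2.22 in cdc28 cultures B and E. STE3, the a-factor receptor of alpha cells, had values of 0.39, 1.16 and 1.20 in that order. BAR1 and STE2, which encode the pheromone protease and receptor, had values on 0 of 17 alpha-factor arrays. In cultures B and E at 0 min BAR1 had 0.62 and -0.87 and STE2 0.56 and -0.24. Of the other a-cell markers, MFA2 had 0.81, 0.53 and 1.37 and STE6 0.10, 0.08 and -0.57, in the order above. The alpha-cell markers MF(ALPHA)1 and MF(ALPHA)2 had -0.40, 1.57 and 1.37, and -0.33, -0.23 and 0.72. Ratios to mid-log cells of the same strain cannot show that a cell type is absent.

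The members' median level stayed near 0 through most of the alpha-factor course and lay lower after release than at the arrest in both cdc28 cultures. In the alpha-factor course it was -0.06 at 0 min and lay between -0.40 at 80 min and 0.05 at 40 min. It was below 0 on 13 of the 17 arrays. In culture B the median stood at 0.53 at the arrest, then 0.47 at 15 min and -0.01 at 30 min, with the lowest value, -0.24, at 60 min. From 75 min on it stayed between -0.03 and 0.18. In culture E it stood at 0.55 at the arrest, then 0.10 at 10 min and 0.20 at 20 min, and reached its lowest value, -0.18, at 130 min. At 0 min, 26 of 65 members were above the array median in the alpha-factor course, against 55 of 60 at the cdc28 arrest of culture B and 54 of 63 at that of culture E.

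**Figure D1:**
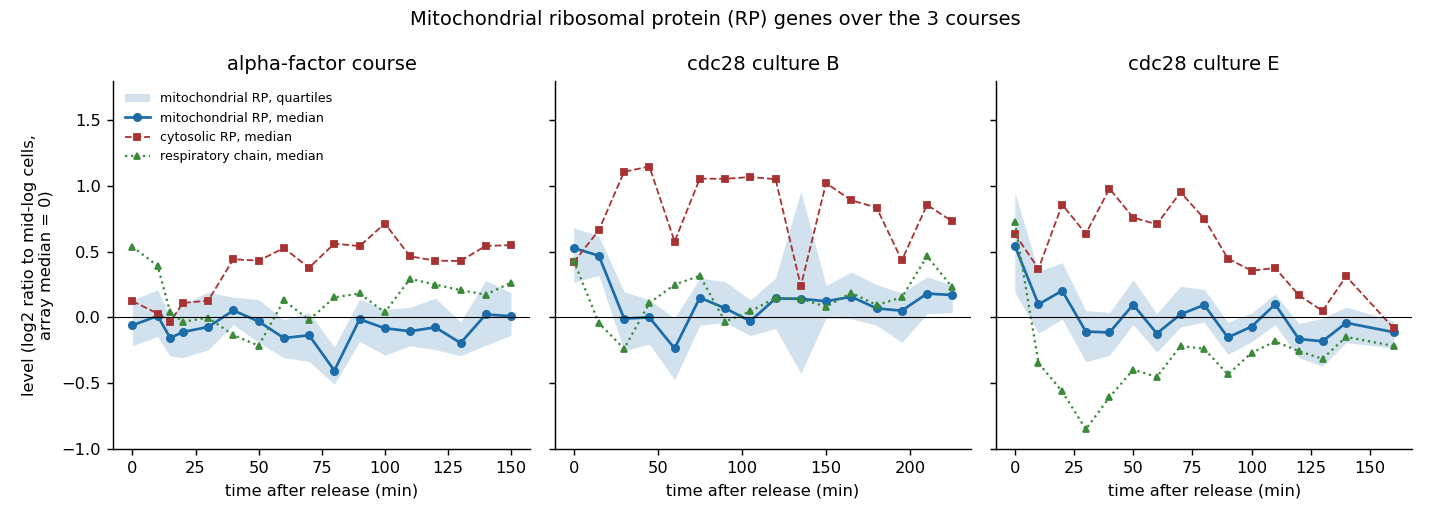
Median level and quartiles of the mitochondrial ribosomal protein genes by time after release, with the medians of cytosolic ribosomal protein and respiratory chain genes. Level is the log2 ratio to mid-log cells with the array median at 0, and each panel is 1 culture. The median of the mitochondrial genes at 0 min is -0.06 in the alpha-factor course, 0.53 for culture B and 0.55 for culture E, and later medians lie between -0.40 and 0.47. The wide band in culture B is the 135 min array.

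The first comparison asked how the cdc28 cultures after release differed from the arrest. Levels at 30, 60, 90 and 120 min were averaged and set against 0 min, with both cultures as replicates. The fit takes the 8 later arrays as independent, although they come from only these cultures. Across features, B minus E differences correlated at 0.54 to 0.87 between the later times, so the SE and p-values given here are too small. Of 58 members tested, 11 were lower after release and 0 were higher at an adjusted p under 0.05 (limma, Benjamini-Hochberg over all 5567 features). Over all features 9.16% passed in either direction, 4.96% lower and 4.2% higher. The members' median difference was -0.58, against 0.0028 over all features, and 56 of 58 differences were below 0. Without the model, all 8 arrays at the later times lay below both 0 min arrays in 33 of 53 members with complete values, against 11.3% of all features. They lay above both in 0 of 53, against 10.6%. By family, 5 of 37 tested members with a bacterial counterpart fell and 6 of 19 without one.

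In the large subunit 8 of 31 tested members fell. MRPL6, of the bacterial uL6 family, had levels of -0.81 to -0.01 (median -0.44) on the 8 later arrays, against 0.88 (B) and 0.52 (E) at 0 min. The groups did not overlap, and the difference of -1.13 ± 0.22 (SE) had an adjusted p of 0.0159 in limma, the lowest among the members. MRPL17, which has no bacterial counterpart, had levels of -0.38 to 0.06 (median -0.19) after release, against 0.46 and 1.20 at 0 min. It fell by 1.02 ± 0.23 (limma adjusted p = 0.0261). Its later arrays lay together, while its 0 min arrays in the 2 cultures differed by more than the whole later range.

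For MRPL13 the arrests lay close together. This gene, whose protein also lacks a bacterial counterpart, stood at -0.52 to 0.00 (median -0.15) after release, against 0.67 (B) and 0.63 (E) at 0 min. It fell by 0.83 ± 0.18 (limma adjusted p = 0.0239). The other large subunit genes that fell were MRPL31, MRP49, MRPL24, MRPL25 and MRPL9, with differences between -1.04 (MRPL31) and -0.73 (MRPL9). MRPL24 belongs to the bacterial bL28 family and MRPL9 to the uL3 family. MRPL31, MRP49 and MRPL25 are specific to mitochondrial ribosomes. MRPL49 had the lowest difference of all members, -1.16 ± 0.33, with an adjusted p of 0.0658 in limma. It had no value at 0 min in culture B, so its difference rests on culture E there. MRPL44 had a difference of -1.12 ± 0.32 and an adjusted p of 0.0632, with 0 min levels of 0.42 (B) and 1.85 (E). All 31 large subunit differences were below 0, with a median of -0.70.

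In the small subunit 3 of 25 tested members fell: RSM27, MRPS16 and MRPS17. RSM27, which has no bacterial counterpart, had levels of -0.05 to 0.58 (median 0.35) on the later arrays, against 0.91 (B) and 1.79 (E) at 0 min. Its difference was -1.03 ± 0.26 (limma adjusted p = 0.0399), and it stayed above the array median on 7 of the 8 later arrays. MRPS16, of the bS16 family, fell by 0.97, and MRPS17, of the uS17 family, fell by 0.78 with an adjusted p of 0.0499 in limma, just inside the threshold. The small subunit median was -0.47. RSM10 and RSM24 were the only members with differences above 0, at 0.01 ± 0.18 and 0.02 ± 0.27. Neither differed from 0 beyond its error, and MRP4, of the uS2 family, was at -0.09 ± 0.33.

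**Figure D2:**
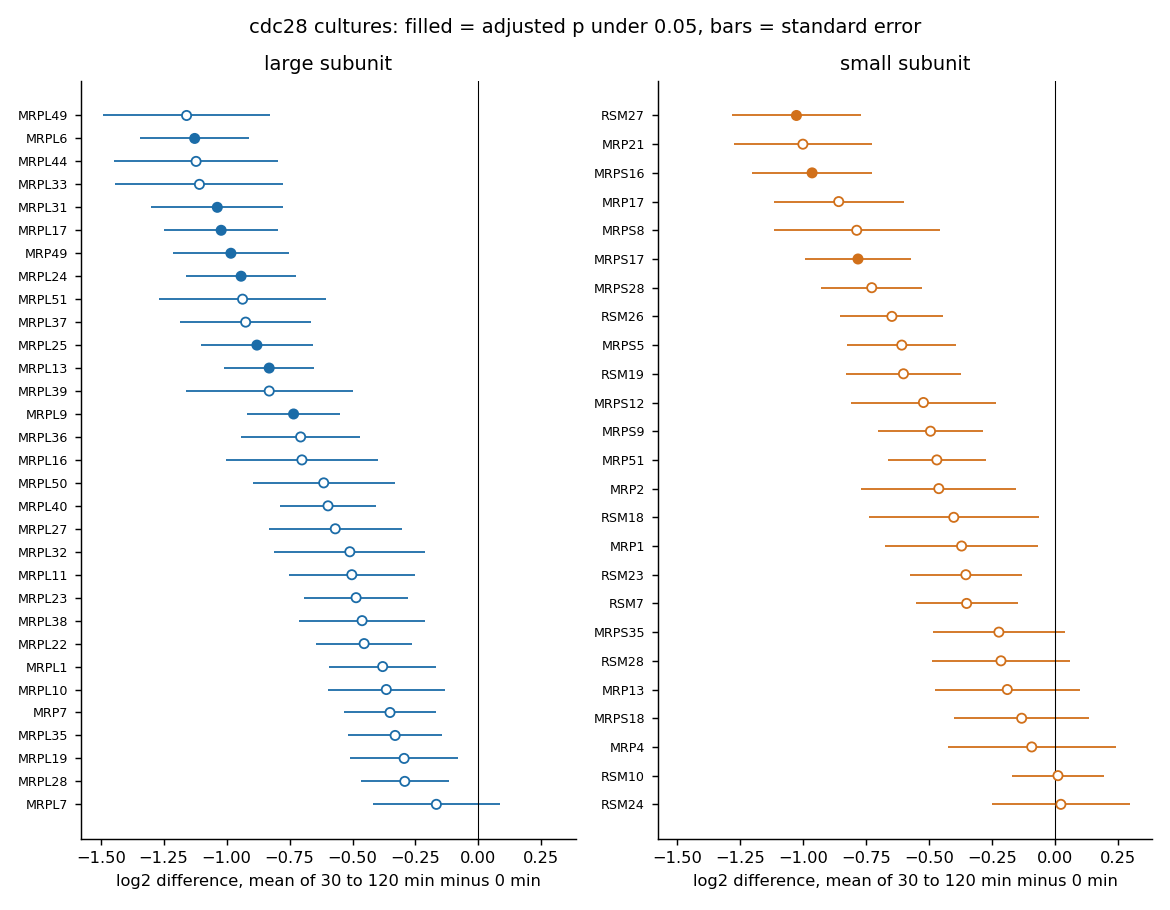
Log2 difference between the mean of 30 to 120 min and 0 min in the cdc28 cultures for 31 large and 25 small subunit genes, with 1 SE from limma. Filled points passed an adjusted p of 0.05: 8 large and 3 small subunit genes. MRP8 and RSM22 are not shown.

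These calls depend on few arrays. With 1 array left out, the share of all features called moved as well. The counts below therefore show how fragile the calls are, and say nothing on the members against other features. Without the 0 min array of culture E, 0 members were called. Without the 60 min array of either culture 1 member, MRPL6, was called, without culture E at 120 min 2, without culture E at 30 or at 90 min 3, and without culture B at 30 min 6. Without the 0 min array of culture B, MRPL6, MRPL13, MRPL9 and MRPS17 were no longer called, while MRPL37, MRPL44 and MRPL50 came in. Leaving out culture B at 90 or at 120 min did not lower the count. Quantile normalization left 0 calls, with 3.75% of all features called. A fit with culture as a replicate block called 23, among them all 11, with 19.8% of all features called. The sizes for single members moved too. With the arrest array of culture E left out, the differences were -0.65 for MRPL17, -0.58 for MRPL31, -0.52 for MRPL25, -0.59 for MRPS16 and -0.58 for RSM27. The members' median difference stayed between -0.66 and -0.55 when any 1 array was left out. Computed within each culture, the median change was -0.51 for B and -0.76 for E. In culture E the arrest and later arrays also differ in slide set and array letter, which cannot be told apart from release.

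The cultures did not have the same sign in every member. Of 53 members with complete values, 39 had a negative change in both cultures, 10 in culture B only, 4 in culture E only and 0 in neither. Over all 5041 features with complete values the counts were 1549, 885, 930 and 1677, so opposite signs were no more frequent among the members than over all features. The 10 were MRPS12, MRPS18, MRPS35, RSM10, RSM23, RSM24, RSM28, MRP4 and MRP13 of the small subunit and MRPL7 of the large one. RSM24 shows the contrast: its change was -0.61 for B and 0.65 for E. In culture B it was at -0.23 to 0.25 at the 4 later times, against 0.59 at 0 min. In culture E it was at -0.05 to 0.24, against -0.54 at 0 min. MRPS12, of the uS12 family at the decoding centre, was at 0.69 (B) and -0.46 (E) at 0 min. In all, 7 members were above 0 in culture B and below 0 in culture E at 0 min, 6 of them in the small subunit. The share of all features with these signs at 0 min is not given, so the count cannot be set against it. Over the 58 members with values in both cultures the correlation of their 0 min levels was r = 0.17, against r = 0.65 over 5546 features. This r is across genes, and genes are not independent replicates.

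**Figure D3:**
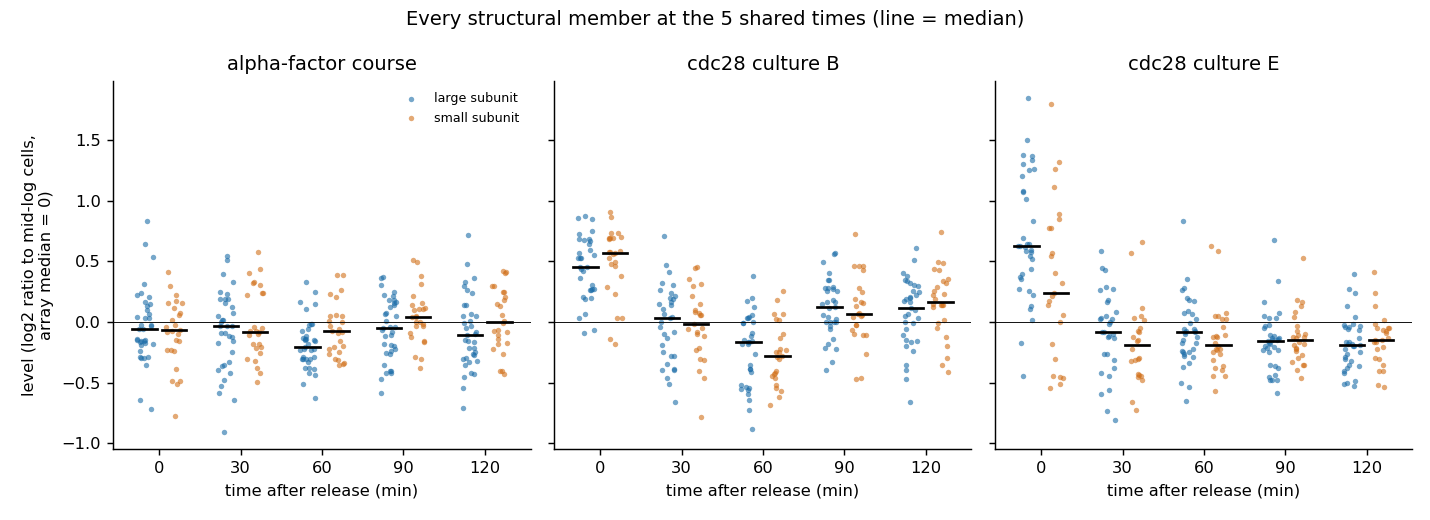
Level of each structural member (points) with the median (lines) at the 5 times all courses share, by subunit. At 0 min the large and small subunit medians are -0.06 and -0.07 in the alpha-factor course, 0.46 and 0.57 for culture B, and 0.63 and 0.24 for culture E, where single members spread from -0.54 to 1.85.

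The spread at 0 min in culture E went with gene length. The members are short, with a median coding length of 699 bp, against 1269 bp over the 5535 features with a length, and large subunit genes (588 bp) are shorter than small subunit genes (769.5 bp). On the culture E array at 0 min, level and log2 coding length correlated at r = -0.66 across the members and r = -0.39 across all features, the strongest negative values of the 49 arrays. On the other 15 arrays of culture E the members' r ran from -0.42 to 0.51. Culture B had -0.59 to -0.19 after release, against -0.09 at 0 min, and in the alpha-factor course it was -0.43 to -0.07. The 32 members shorter than the members' median stood at 0.84 and the longer ones at 0.22 on the culture E array at 0 min. In culture B those medians were 0.54 and 0.51.

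That array was alone of its course on its slide, as was the 140 min array of culture E. With the dependence on length removed from each array by a loess fit, a step chosen after seeing the data, 4 of 58 members were called, MRPL6, MRPL13, MRPL17 and MRPL24, against 10.2% of all features. The members' median difference was then -0.37. The median change within culture B was then -0.48, with 53 of 57 members negative, and within culture E -0.34, with 38 of 55 negative.

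**Figure D4:**
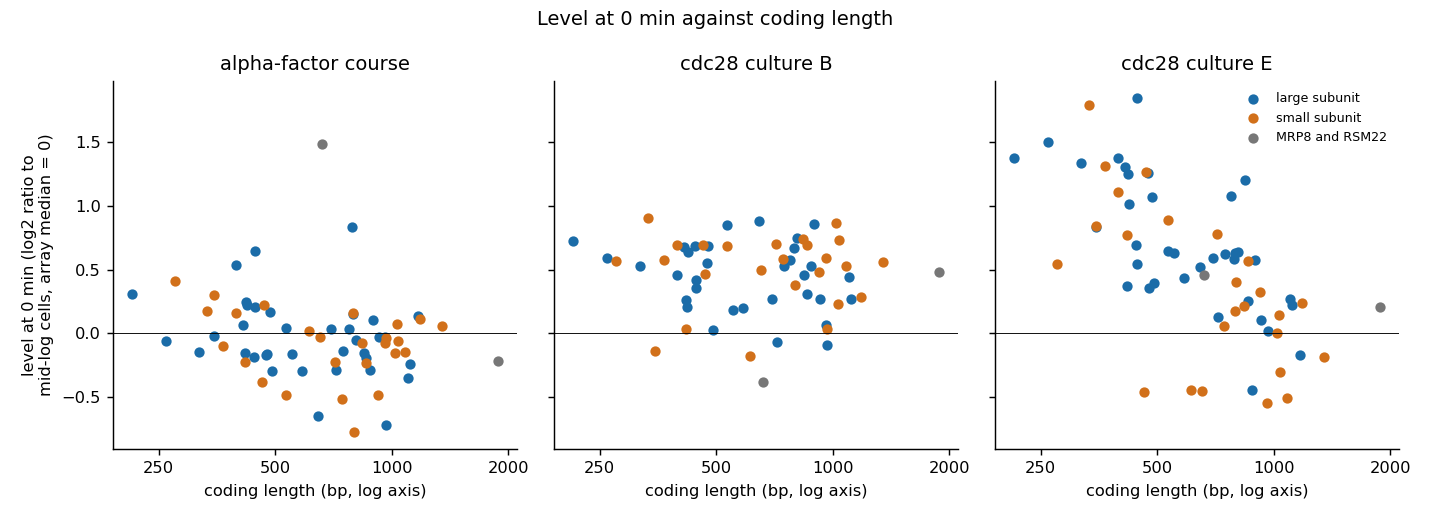
Level at 0 min against coding length (log axis) for each member in the 3 courses. Points slope down in culture E (r = -0.66), less in the alpha-factor course (r = -0.24), and hardly in culture B (r = -0.09).

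At single times the same direction held with fewer calls. At 30 min against 0 min, 1 of 58 members was lower, MRPL6, by 1.30 ± 0.27 (limma adjusted p = 0.0274), and 0 were higher. Over all features 5.32% passed, 2.89% lower and 2.42% higher. All 58 differences were negative, with a median of -0.54, and 23 had an unadjusted p under 0.05. Over all 5568 features 641 were lower and 584 higher at that unadjusted p. The call of MRPL6 was lost with quantile normalization and without either 30 min array, either 60 min array or the 0 min array of culture E. With the replicate block 6 of 58 members were called, close to the 10.9% of all features in that fit. Without the 0 min array of culture B 8 of 57 were, MRPL6 not among them, against 8.58% of all features. At 120 min against 0 min, limma called 0 of 59 members, against 2.43% of all features (1.27% lower, 1.16% higher). At an unadjusted p under 0.05, 19 were lower and 0 higher, against 522 lower and 548 higher of all 5590 features. MRPL44 had the lowest difference, -1.40 ± 0.41, and RSM10 the highest, 0.39 ± 0.23. The block called 4 of 59 members there, against 7.46% of all features, and the fit without the 0 min array of culture B 4 of 58, against 5.45%. Both counts are near the share over all features. All 3 cdc28 comparisons use the same arrest arrays.

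The next comparison asked whether the members differed between the kinds of arrest. At 0 min limma called 0 of 59 members between the alpha-factor and cdc28 cultures, against 3.71% of all features (1.22% lower, 2.49% higher). At an unadjusted p under 0.05, 16 members were lower and 1 was higher in the alpha-factor arrest. Of all 5586 features 583 were lower and 697 higher at that unadjusted p. The median difference was -0.61, and 57 of 59 were negative. In 45 of 58 members the alpha-factor level lay below both cdc28 levels, against 37.8% of all features, and in 2, MRP8 and RSM10, above both, against 39.1%. MRPL6 had the largest difference downwards: its level was -0.65 in the alpha-factor arrest, against 0.88 and 0.52 in cdc28 cultures B and E, a difference of -1.34 ± 0.33 (limma adjusted p = 0.0583). RSM26, a small subunit protein without a bacterial counterpart, stood at -0.77 in the alpha-factor arrest, against 0.38 and 0.40 in cdc28 cultures B and E. With the replicate block 5 of 59 members were lower and 1 was higher, while 13.9% of all features passed in that fit. With length-adjusted values the median difference was -0.34. The alpha-factor group is a single array, assumed to vary like the cdc28 pairs.

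After release the members' differences lay on both sides of 0. Over the mean of 30 to 120 min the median difference between alpha-factor and cdc28 cultures was 0.0015, with 29 members positive and 28 negative. limma called 0 of 57, against 6.82% of all features (3.75% higher, 3.08% lower). At an unadjusted p under 0.05, 1 member was higher and 0 lower, against 631 higher and 600 lower of all 4910 features. MRP4 was lowest, at -0.48 ± 0.26, followed by MRPL19 of the uL11 family, at -0.37 ± 0.17. MRPL16, of the uL16 family, was at 0.45 ± 0.23, below MRP8 alone. The test of the difference between the changes, alpha-factor minus cdc28, called 0 of 57 members, against 0.387% of all features (0.0815% higher, 0.306% lower). Of the 57, 53 were positive and the median was 0.60. At an unadjusted p under 0.05, 7 members were higher and 0 lower, against 189 higher and 341 lower of all 4906 features. MRPL6 led with 1.39 ± 0.37 (limma adjusted p = 0.209). Within the alpha-factor course alone the members' median change from 0 min to the later times was -0.02, with 34 members negative and 30 positive.

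MRP8 and RSM22 had different courses. MRP8 is named with the family but was not found in structures of the mitochondrial ribosome. It stood at 1.49 at 0 min, 0.85 at 10 min and 0.04 at 20 min in the alpha-factor course, and between -0.12 and 0.35 from 20 min on. Culture B had -0.38 at the arrest, its lowest level, -1.10, at 30 min, and 0.18 at 225 min. Culture E had 0.46 at the arrest, its lowest level, -1.23, at 20 min, and -0.24 at 160 min. It was the 1 member with an unadjusted p under 0.05 upwards at 0 min, with a difference of 1.45 ± 0.41 between the alpha-factor and cdc28 arrests (limma adjusted p = 0.0873). After release its difference was 0.72 ± 0.21 (limma adjusted p = 0.0814), again the highest of the members. RSM22, a methyltransferase-like protein needed for mitochondrial translation, kept within -0.45 and -0.02 in the alpha-factor course. In the cdc28 cultures it was at -0.18 to 0.14 at the shared later times, against 0.48 (B) and 0.21 (E) at 0 min, a difference of -0.34 ± 0.18 (limma adjusted p = 0.256).

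**Figure D5:**
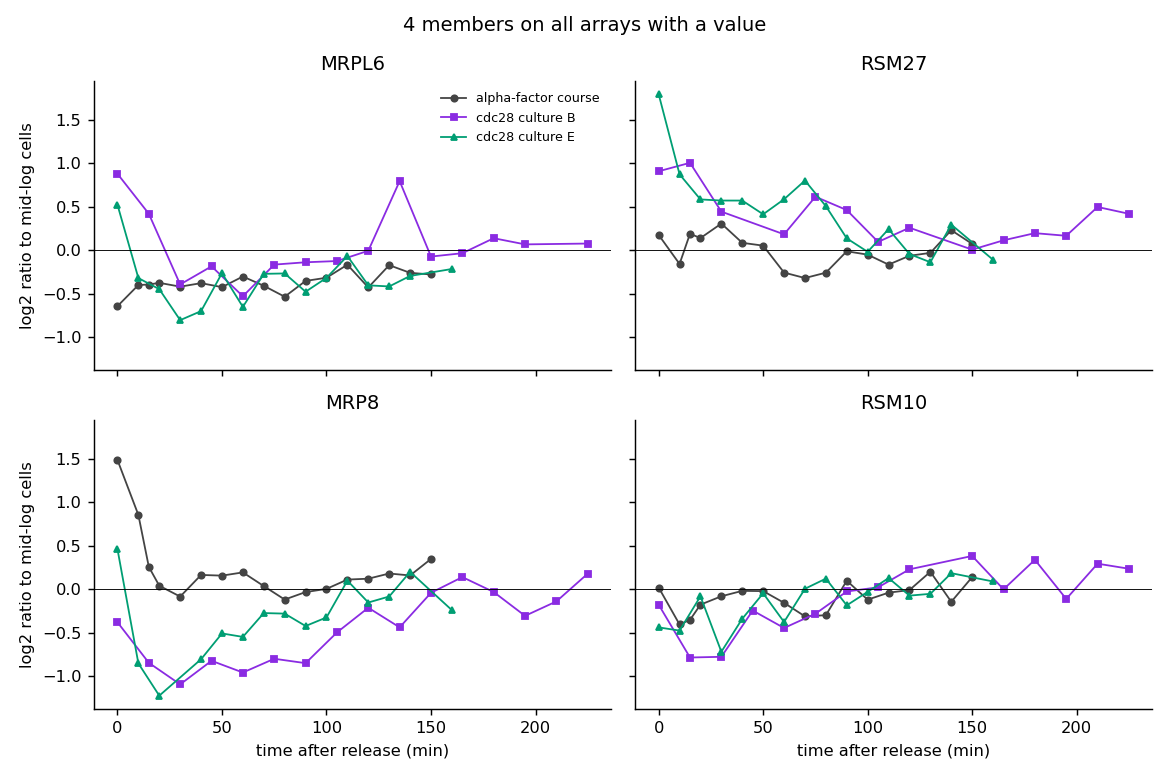
Levels of MRPL6, RSM27, MRP8 and RSM10 on every array with a value, by time after release, 1 line per culture. MRP8 is highest at 0 min after alpha factor (1.49), and MRPL6 and RSM27 are highest at the cdc28 arrest or, for RSM27 in culture B, at 15 min. The MRPL6 point at 135 min in culture B is on the array that stands apart.

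The third question was whether members oscillate with the cell cycle. A cosine and a sine term were tested at the period found for each course from cell cycle marker genes (alpha-factor 53 min, B 123 min, E 103 min), with a linear trend in the fit. limma called 0 of 64 members periodic in the alpha-factor course, where 26.3% of all features passed. There 10 members had an unadjusted p under 0.05, against 2171 of 5359 features. In culture B it called 0 of 59, against 14% of all features. An unadjusted p under 0.05 was reached there by 8 members, against 1544 of 5598 features. In culture E it called 0 of 58, against 4.92%, and 1 member had an unadjusted p under 0.05, against 1056 of 5717 features. The lowest adjusted p was 0.0539, for MRP49 in the alpha-factor course, with an amplitude of 0.19. The members' median amplitude was 0.10 for the alpha-factor course, 0.18 for B and 0.10 for E, against 0.17, 0.17 and 0.15 over all features. Length adjustment gave 3 periodic members in the alpha-factor course, quantile normalization 2 there and 3 in culture B, and culture B without its 135 min array 2. The share of all features in these refits is not given.

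A linear trend over time was commoner in culture E. There 18 of 58 members fell and 4 rose, against 44.5% of all features with a trend in either direction (20.8% down, 23.7% up). Of those that fell, 14 were in the large subunit and 3 in the small, with RSM22 besides. RSM27 fell fastest, by 0.48 ± 0.09 per hour (limma adjusted p = 0.000764), followed by MRPL44, MRPL39, MRPL37 and MRPL33 of the large subunit. The 4 that rose, RSM10, MRPS18, RSM24 and RSM28, were all of the small subunit and all below 0 at 0 min, and RSM10 rose by 0.23 ± 0.06 per hour. Without the 0 min array 16 fell and 5 rose. Slide moved with the level in this course. On the 5 arrays of slides 33 to 36 the members' median was -0.04 to 0.20, against -0.18 to 0.10 on the 10 arrays of slides 06 to 12. The first set covers 20 to 140 min and the second 10 to 160 min. The correlation within slides was 0.63, against 0.03 in the alpha-factor course and 0.13 in culture B. With the slide set in the fit 26 members fell and 8 rose. For this fit and the fit without the 0 min array the share over all features is not given. Their counts cannot be set against it. In the periodic test of this course the slide set gave 1 member, against 0 without it. In the comparisons with 0 min, the culture E array at 0 min is on slide 76 with array letter T. Its arrays at 30, 60, 90 and 120 min are all on slides 06 to 12 with array letter B. Release, slide and letter cannot be told apart there. The members' median was -0.16 to -0.11 on those later arrays, against 0.10 at 50, 80 and 110 min on slides 33 to 36. The part of slide was not tested.

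The other courses had few trends among the members. In the alpha-factor course 2 of 64 fell, MRP17 by 0.24 ± 0.06 per hour and MRPL44 by 0.28 ± 0.08 per hour, and 0 rose, against 15.9% of all features (7.93% down, 8.01% up). MRP17, of the bS6 family, was at 0.16 at 0 min, 0.58 at 30 min and -0.28 to 0.00 from 80 min on. In culture B 2 of 59 rose, MRP8 by 0.32 ± 0.05 and RSM10 by 0.24 ± 0.06 per hour, and 0 fell, against 26.2% of all features (11.8% up, 14.4% down). With values on every array required, 1 rose. RSM10, of the uS10 family, rose in both cdc28 cultures. It was lowest at 15 min in culture B (-0.79) and at 30 min in culture E (-0.72).

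One array of the alpha-factor course stood out in the members. At 80 min their median was -0.40 and 61 of 65 were below 0. With the array median set to 0, as many of all features with a value lie below 0 as above it. The other 16 medians lay between -0.19 and 0.05. The array at 90 min lay on the same slide.

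Within a course most members moved with each other. The correlation of each member with the median of the others had a median of r = 0.52 in the alpha-factor course, 0.70 for B and 0.82 for E. Over other features the median r with the members' median was 0.0052, 0.0045 and -0.021 in that order. The 95th percentile over other features was 0.54, 0.62 and 0.85, above the members' median in the alpha-factor course and in culture E, so many other features followed the members as closely. In culture E 11 members had a negative r, among them RSM24 (-0.72), MRPS18 (-0.57) and RSM28 (-0.35). Over all 49 arrays MRP21, of the bS21 family, was closest to the others (r = 0.87), and MRP8 (-0.13) and RSM10 (-0.03) were the 2 members below 0. These points share array, slide and reference RNA, and no p is given.

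The named genes outside the members whose levels were most like the members' median over all arrays were PET100 (r = 0.83), CMC1 (0.82), FYV4 (0.81), RRG9 (0.80), REX3 (0.79), NCE101 (0.79), DPC29 (0.78), PET123 (0.78), SME1 (0.78) and STS1 (0.77). FYV4 and PET123 are small subunit proteins of the mitochondrial ribosome that the name pattern misses. PET100 and CMC1 encode factors for the biogenesis of cytochrome c oxidase. RRG9 is needed for respiratory growth, DPC29 takes part in mitochondrial translation, and REX3 encodes an RNA exonuclease. SME1 encodes a splicing protein of the Sm family, and STS1 a protein that acts on the proteasome. In the RefSeq gene order CMC1 lies next to the member MRPL31, and SME1 next to PET123. Each r rests on 46 to 49 arrays.

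Other mitochondrial genes were set beside the members for the mean of 30 to 120 min against 0 min in the cdc28 cultures, where 4.96% of all features were lower and 4.2% higher. Of 9 mitochondrial ribosomal genes with other names, 1 fell: FYV4, by 1.17 ± 0.30 (limma adjusted p = 0.0417), and their median was -0.62. Among 18 mitochondrial translation factors the median was -0.22, and only RRF1, the ribosome recycling factor, fell, by 1.02 ± 0.23. Of 12 mitochondrial tRNA synthetases 0 passed in limma, with 2 at an unadjusted p under 0.05, both lower, and a median of -0.11. Of 9 ribosome assembly factors and 6 genes of mitochondrial genome expression 0 passed in limma, with medians of -0.09 and -0.23. An unadjusted p under 0.05 was reached by 3 of the assembly factors and 0 of the others. Over all 5567 features 799 were lower and 810 higher at that unadjusted p. In the import list 1 of 14 fell, HSP10, the co-chaperonin of the mitochondrial matrix, by 2.07 ± 0.23.

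Respiratory chain genes also lay below 0 on the median, and cytosolic ribosomal protein genes above it. Of 32 respiratory chain genes 5 fell and 0 rose in this comparison, with a median of -0.66. QCR10, a subunit of complex III, was lowest, at -1.84 ± 0.44. At 30 min their median was -1.08, against -0.54 for the members. Of 126 cytosolic ribosomal protein genes 5 rose, near the 4.2% over all features, and 1 fell, with a median of 0.17. RPL2B rose by 1.27 ± 0.26 and RPL32 fell by 0.99 ± 0.26. Of 38 ribosome biogenesis genes 1 rose, NOP1, the nucleolar methyltransferase fibrillarin, by 1.22 ± 0.27, and their median was 0.03. The difference between these lists and the members was not tested.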

How the data were processed

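The deposited values are read as log2 ratios of Cy5 (synchronized cells) to Cy3 (mid-log cells), per the labels. The log base, centring, scanner and spot filters, and how they were normalized, remain not given in the sources used here, and log2 is assumed. Of 6258 probes, 5570 had 1 gene symbol. Probes of 29 genes were averaged, each array was centred on its median, and no column was left unused. Locus tags and coding lengths came from the RefSeq table (assembly R64) and matched all 65 members, of which 41 also had a bacterial-family name there. The other families and subunits came from lists. MRPL15 and MRP10 are not analysed here.

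Tests used limma 3.58.1 in R 4.3.3 (least squares per feature, moderated variances, two-sided) on features with values on at least 80% of arrays, with Benjamini-Hochberg adjustment over all of them. Contrasts used 15 arrays, 10 groups and 5 residual degrees of freedom, all from the cdc28 pairs, labelled as biological replicates, and p-values for 1 course cover the spread between its arrays only. Arrays of 1 course share a culture, so culture was also fitted as a block. Its check, the correlation of B minus E differences between times, gave -0.07 to 0.87, with values near 0 where 0 min was 1 of the times. Between the later times it was 0.54 to 0.87, yet means of 30 to 120 min were tested as if their arrays were independent. A block gives each culture the same offset at all times, so it does not remove this dependence from the comparisons with 0 min. Periods were set on 60 marker genes, none a member.

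Members and lists were chosen with earlier results of these data known. Named were the members past a threshold (25 at most), the 3 highest and lowest of each contrast, MRP8, RSM22, the extremes of each list and the 10 genes most like the members. Others named were chosen after their values were seen. Alternatives were no centring, quantile normalization, other filters, 1 array left out, culture block, array letter, slide, period, trend terms and length-adjusted values. The number of arrays limits the precision. The fits were tested on simulated data.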

Additional observations from a re-analysis of the deposited data

How the results depend on the processing

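Of the members' counts and medians under all alternatives, 361 stayed within 1.5 times (counts) or the spread (medians), and 59 moved. Equal counts, also of 0, were among the 361, and the sign of a median was not part of the rule. Of values of single named members, 814 kept direction and side of the threshold, 106 were weaker, 16 were stronger and 25 reversed. For the mean of 30 to 120 min against 0 min in the cdc28 cultures, the count of lower members was 0 with quantile normalization, 23 with culture as a replicate block, 4 with length-adjusted values (median -0.37), and 0 to 13 when 1 array was left out (median -0.66 to -0.55). For 30 min quantile normalization gave 0 lower of 58 (1.62% of all features), the block 6 (10.9%) and the array letter as a covariate 4 (11.6%). With 1 array left out the median was -0.73 to -0.54. In these contrasts the letter differs within a group only between cultures B and E at 30 to 120 min. The letter term thus cannot be told apart from culture, here and in the letter results below. For 120 min the count of lower members was 4 of 59 with the block (7.46% of all features) and 1 of 59 with the letter (6.26%). With 1 array left out the median was -0.80 to -0.41. Between the arrests, the block gave 1 higher and 5 lower of 59 (13.9% of all features) and the letter 2 lower of 59 (7.18%). The median was -0.66 without centring, -0.42 with quantile normalization, -0.47 with the letter, -0.34 with length adjustment and -0.69 to -0.61 with 1 array left out. After release, quantile normalization and the block gave 1 of 57 higher each, against 12.5% and 17.3% of all features. The letter gave 2 higher and 1 lower, against 23%. These counts lie below the share over all features. The median was -0.04 to 0.07 with 1 array left out. For the difference between the changes, the block gave 1 of 57 higher, against 1.12% of all features. The median was 0.48 with quantile normalization, 0.44 with the letter, 0.38 with length adjustment and 0.53 to 0.62 with 1 array left out. For the periodic and trend counts that follow, the share of all features in each refit is not given. Periodic members in the alpha-factor course numbered 1 without centring, 2 with quantile normalization, 1 without the trend, 1 with the letter and 3 with length adjustment. In culture B they numbered 3 with quantile normalization and 0 to 2 with 1 array left out, and in culture E 1 with the slide set. Downward trends after alpha factor numbered 4 with quantile normalization or the letter, 1 with values on every array, without cosine and sine or with a longer period, and 3 without the 0 min array, and 1 upward trend came with length adjustment. In culture B, 1 rose with values on every array and 1 fell with length adjustment. In culture E, 2 rose with slide as a random block and 8 with the slide set, and 16 fell and 5 rose without the 0 min array.

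The 25 reversals were in MRPL7, RSM24, MRP4, MRPS18 and RSM10, all among the 10 members with a negative change in culture B only. At 30 min MRPL7 reached 0.034 with length adjustment, and with 1 array left out MRPL7 ran from -0.59 to 0.39, RSM24 from -0.67 to 0.46 and MRP4 from -0.56 to 0.40. At 120 min MRPS18 was -0.0066 with the letter and -0.35 to 0.59 with 1 array left out, and RSM24 -0.46 to 0.67. For the mean, quantile normalization gave MRP4 0.020, RSM10 -0.054 and RSM24 -0.0075, the letter gave RSM24 -0.042, and leaving out 1 array gave MRP4 -0.21 to 0.027, RSM10 -0.12 to 0.14 and RSM24 -0.54 to 0.59. Between the arrests MRPS18 was 0.20 with length adjustment and -0.52 to 0.42 with 1 array left out. For the difference between the changes, RSM10 was 0.0025 with quantile normalization and -0.20 to 0.062 with 1 array left out, and MRP4 was 0.44 with the letter. Apart from the array left out or the step named, the cause was not tested. Signal over background is not given, so what it limits cannot be stated. Length adjustment, the slide set and culture B without 135 min were chosen after seeing the data.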
